A study of Mus musculus with 15 samples.

Results

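Cells with a detected marker of the *Mesp1* lineage were compared with the other cells of the same control mouse embryo. The lineage is marked by Ai14, a tdTomato gene at *Rosa26R* that stays silent until Cre recombinase acts on it, and the *Mesp1Cre* knock-in puts Cre in the *Mesp1* locus. A cell was called Ai14-positive when at least 1 unique molecular identifier (UMI, the tag of a single captured transcript) matched the Ai14 sequence, and Ai14-negative when none did. Of the 93701 cells of the whole series that met the limits on cell quality, 64852 cells from 10 control embryos with the reporter entered the comparison, 11433 of them Ai14-positive and 53419 Ai14-negative. Both sets were chosen by the Ai14 UMI count of each cell, so Ai14 levels are a description of the split and are not tested.

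The gene *Mesp1*, a basic helix-loop-helix transcription factor, is switched on for a short time as epiblast cells pass through the primitive streak and leave it as mesoderm. Cells that have expressed it go on to the heart, the lateral plate, cranial mesoderm and a large share of the blood vessels, and also to mesoderm of the extra-embryonic region. Recombination is permanent, so Ai14 marks a cell that has expressed *Mesp1* and all of its descendants after *Mesp1* itself is switched off, whereas a *Mesp1* transcript reports the present state of the cell.

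Each control embryo carried at least 1 wild-type *Mesp1* allele and was labelled as whole embryo of strain C57/BL6. The sires were *Mesp1Cre/+;Rosa26R Ai14;Hipp11 Smarcd3-F6::eGFP* males and the dams were C57BL/6J wild-type, *Mesp1Cre/+* or triple-transgenic females, so a control may hold 1 *Mesp1Cre* allele, a knock-in with a PGK-Neo cassette. The sample labels do not give this allele by embryo. Ai14 stays silent without Cre, so the 10 reporter embryos are taken to be *Mesp1Cre/+*. For the controls without the Ai14 transgene the allele is not known. The enhancer transgene *Smarcd3*-F6::eGFP marks early cardiac progenitor cells with green fluorescent protein. The early embryos were E6.0 replicates 1, 2 and 3, late E6.0 replicate 1 and E6.5 replicate 1. The middle embryos were late E6.5 replicate 1 and E7.0 replicate 1, and the late embryos were late E7.5 replicate 2 and E7.75 replicates 1 and 2. A further 2 controls, early E7.5 replicate 1 and late E7.5 replicate 1, lacked the Ai14 transgene and served to measure the background of Ai14 detection. Later embryos had been de-yolked before dissociation, and each embryo was a library of its own.

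The libraries of the 10 embryos held between 13058356 and 379177866 UMIs, with a median of 55081863, and gave between 255 and 22277 kept cells. E7.75 replicate 1 stood apart, with a median of 3926 UMIs per cell against 14060 to 34420 in the other 9 embryos. Between 48 and 4454 Ai14-positive and between 207 and 17823 Ai14-negative cells were summed per embryo, and the sums of the positive cells held between 1691575 and 111502400 UMIs. Over all 12 control libraries, 71031 cell barcodes occurred in 1 library, 3107 in 2, 76 in 3 and 2 in 4. In early E7.5 replicate 1, 90 cells shared a barcode with an Ai14-positive cell of a reporter library, and 2.22% of those were Ai14-positive against 2.70% of its other cells. In late E7.5 replicate 1 there were 114 such cells, with 1.75% against 2.45%. Embryos are the replicates throughout, and E6.0 and E7.75 are the only ages with more than 1 reporter embryo.

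Ai14 was found in a like share of cells from the earliest embryos onward. The share was 21.6%, 22.9% and 18.8% in E6.0 replicates 1, 2 and 3, 19.8% in late E6.0 and 23.3% in E6.5. It was 14.04% in late E6.5 and 22.8% in E7.0. Late embryos held 19.99% in late E7.5 replicate 2, 4.67% in the shallow E7.75 replicate 1 and 24.2% in E7.75 replicate 2. The mean was 19.2% over 10 embryos, and all but E7.75 replicate 1 lay at or above 14.04%.

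In the 2 embryos without the transgene, 2.70% (158 of 5861 cells, exact 95% Clopper-Pearson interval 2.30% to 3.14%) and 2.44% (165 of 6768 cells, 2.08% to 2.83%) still held an Ai14 UMI. These intervals cover counting error only. Most cells of the background held a single Ai14 UMI, but 18 of the 158 cells of early E7.5 replicate 1 held 2 or more, 12 of them among its 41 Ai14-positive parietal endoderm-like cells. At least 2 Ai14 UMIs were seen in 0.307% and 0.0886% of the cells of these embryos, against 6.95% to 16.0% in the 9 deeper reporter embryos and 0.403% in E7.75 replicate 1. Detection also followed depth in most embryos. In late E7.5 replicate 2, which had the widest gap, the median was 9956 UMIs in cells without an Ai14 UMI, 22060 in cells with 1 and 28010 in cells with 2 or more. Late E6.0 replicate 1 gave 33800, 31300 and 41690. In the embryos without the transgene, cells with 2 or more had fewer UMIs than cells with 1, at 26120 against 30530 and 20470 against 25600. With every cell thinned to 2000 UMIs the mean share was 3.618% in the reporter embryos, and the background 0.164% and 0.185%. A cell without an Ai14 UMI is therefore not shown to lie outside the lineage, and a cell with a single UMI is not shown to lie in it.

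**Figure D1:**
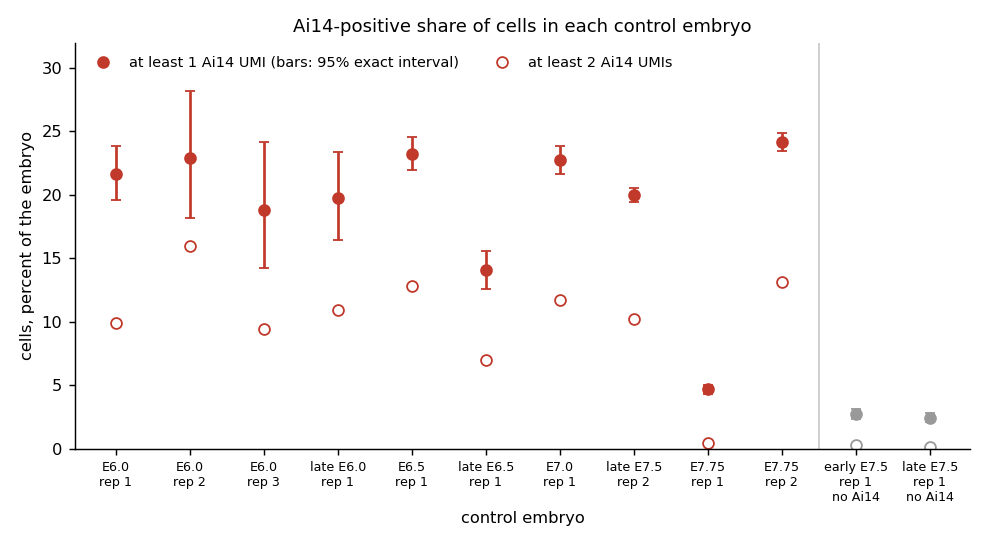
Share of cells with at least 1 Ai14 UMI (filled circles, y axis, percent) in each of the 12 control embryos (x axis), with exact 95% Clopper-Pearson intervals, and share with at least 2 (open circles). The 9 deeper reporter embryos lie between 14.04% and 24.2%, the shallow E7.75 replicate 1 at 4.67%, and the 2 embryos without Ai14 at 2.70% and 2.44%.

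*Mesp1* (chromosome 7, 79792241 to 79793590, mm10) was detected in most Ai14-positive cells of early and middle embryos and in few of those of late embryos. A *Mesp1* UMI was found in 52.8% to 68.1% of the Ai14-positive cells of the 7 early and middle embryos, against 8.11% to 19.5% of the Ai14-negative cells. In late E7.5 replicate 2 the shares were 3.95% and 2.68%, in E7.75 replicate 1 they were 1.30% and 1.54%, and in E7.75 replicate 2 they were 17.2% and 6.85%. Read the other way, between 37.4% and 70% of cells with a *Mesp1* UMI in early and middle embryos also held an Ai14 UMI. The share of *Mesp1* UMIs that came from free RNA was not measured, so a UMI does not show that the cell transcribed the gene. In the embryos without the transgene, 2.97% and 1.67% of the cells with *Mesp1* held an Ai14 UMI.

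Clustering gave 38 clusters, of which 7 stayed unnamed, cluster 12 is given by its number and the others were named from marker lists, with the ending "-like". An unnamed cluster could still have raised markers of a list. Some clusters came almost only from the embryos without Ai14. The unnamed cluster 8 held 2792 of their cells, 125 of them with an Ai14 UMI, and 31 reporter cells. Among Ai14-positive cells, 17.5% had a lateral plate and extra-embryonic mesoderm-like profile, 12.4% a presomitic and paraxial mesoderm-like, 11.04% a primitive streak and mesendoderm-like, 9.45% blood-like, 9.20% cardiomyocyte-like, 9.02% endothelial-like and 8.04% epiblast-like, and 13.1% lay in unnamed clusters. Shares within a class are given below for embryos with at least 20 cells of it, and those of E7.75 replicate 1 are given apart because of its depth.

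The streak-like class and several mesodermal classes lay far above the background. In the primitive streak and mesendoderm-like class the share ran from 59.8% in late E6.5 to 83.3% in E6.0 replicate 2, over 7 embryos. The class is cluster 20 alone, which had 7 of 8 streak markers raised but was led by *Lefty2*, *Mesp1* and *Mesp2*, genes of nascent mesoderm, with *Lhx1*, *Mixl1* and *Eomes* of the streak list after them and *T* not among its 10 leading genes, so its name holds only in part. Lateral plate and extra-embryonic mesoderm-like cells were Ai14-positive in 58.6% to 79.0%, and in 16.7% in E7.75 replicate 1. Cardiomyocyte-like cells reached 73.6% and 81.2% in the 2 deeper late embryos, and 13.1% in E7.75 replicate 1. Endothelial-like cells ranged from 50% to 68.2%, with 23.9% in the shallow embryo. In the same classes the embryos without Ai14 gave between 0% and 2.74%, so these shares lie far above the background. A count of 0 allows 3 counts, as in the 143 endothelial-like cells and the 25 streak-like cells of those embryos.

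Blood-like cells were Ai14-positive in 86.7% in E6.5, 77.8% in late E6.5 and 74.0% in E7.0, then in 44.2% in late E7.5 replicate 2 and 52.8% in E7.75 replicate 2. The share was 8.70% of 46 cells in E7.75 replicate 1, and 0.451% and 0.913% in the embryos without the transgene. The clusters within the class differed. In the cluster led by *Gata1* and *Tal1*, transcription factors of early blood, the share was 66.9% to 88.1%. The cluster led by the embryonic globins *Hba-x*, *Hbb-bh1* and *Hbb-y* gave 63.2% and 54.4%. The cluster led by the adult globins *Hbb-b1*, *Hbb-b2* and *Hba-a2* gave 11.2%, 6.67% and 5.0% in late E7.5 replicate 2 and E7.75 replicates 1 and 2. Its median UMI counts per cell in these embryos were 2992, 7796 and 1432. The median in E7.75 replicate 1 lay above the 5145 of all Ai14-positive cells of that embryo. That last cluster held 57.7% of the Ai14-negative blood-like cells and 7.04% of the positive ones, and 45 of the 46 blood-like cells of E7.75 replicate 1. The class shares of late embryos thus mix unlike clusters. The part of depth in the shares of that cluster was not tested, nor whether its cells came from the embryo.

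A similar split ran through the lateral plate class. Cluster 14, led by the smooth-muscle and matrix genes *Acta2*, *Tagln*, *Ahnak*, *Snai2* and *Col1a1*, was Ai14-positive in 82.2% to 89.3% of cells in the 5 deeper embryos that held it. Cluster 13, led by *Pitx1*, *Foxf1*, *Hand1* and *Pmp22*, was positive in 28.4% to 69.9% of cells in 4 of them. In E7.75 replicate 1 the shares were 22.2% and 15.6%. Cells of cluster 13 had median counts of 7224 to 15873 UMIs in the deeper embryos, against 27602.5 to 34317 in cluster 14, and the part of depth was not tested. An unnamed cluster led by *Tbx4* and *Hoxa10*, genes active in the hindlimb and allantois, was Ai14-positive in 62.7% and 78.5% of cells in late E7.5 replicate 2 and E7.75 replicate 2, in 14.7% in E7.75 replicate 1 and in 0% in both embryos without Ai14. It had 8 of 8 lateral plate markers raised, but its 684 Ai14-positive cells are not counted in the lateral plate class. Paraxial mesoderm-like cells gave 45.4% and 60.2% in late E7.5 replicate 2 and E7.75 replicate 2, and 14.3% in E7.75 replicate 1, against 3.16% and 2.02% without the transgene. The 2 kinds of embryo lay in different clusters of this class. Cluster 19, with *Msgn1*, *Tcf15* and *Tbx6* among its leading genes, held 1879 cells without the transgene and 17 reporter cells. In clusters 10 and 23, which held most of the reporter cells, the embryos without Ai14 gave 0 of 88 and 1 of 5 cells.

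Cluster 12 had 3 of 5 allantois markers raised, but its leading genes, among them *Hoxc8*, *Osr1*, *Crabp1* and *Ifitm1*, are not on that list, and *Tbx4* and *Hoxa10*, which are, led the unnamed cluster above. It was Ai14-positive in 6.95% of 374 cells in late E7.5 replicate 2, in 9.09% of 88 cells in E7.75 replicate 2 and in 5.27% in E7.75 replicate 1, which held 80.4% of its cells, against 0 of 23 cells in early E7.5 replicate 1. Its median was only 2780 and 3459 UMIs per cell in the first 2 of these embryos. An unnamed cluster led by *Msgn1*, *Osr1*, *Dll1* and *Tbx6* was positive in 15.8% of 1464 cells in late E7.5 replicate 2 23.9% of 1806 cells in E7.75 replicate 2 and 3.33% of 30 cells in E7.75 replicate 1, against 2.94% of 34 cells and 0 of 48 cells without the transgene.

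Ectodermal and endodermal classes lay low, and several of them at the background. Definitive endoderm and gut-like cells were Ai14-positive in 5.88% to 10.8%, a range that overlaps the 9.80% and 8.12% in the embryos without Ai14. The class holds unlike clusters. Cluster 24 had *Foxj1* and *Noto* of the node list beside *Cer1* and *Sox17* among its leading genes, so its name holds only in part. Cells without the transgene lay mostly in clusters 24 (295 cells, 8.81%) and 32 (176 cells, 8.52%). Pooled reporter embryos gave 9.85% and 5.54% there. Cluster 26, led by *Nepn* and *Pax9*, held 25 cells without the transgene. Node and notochord-like cells gave 6.25% and 7.19% against a background of 6.25% and 5% (32 and 80 cells). In parietal endoderm-like cells the embryo without Ai14, early E7.5 replicate 1, gave 22.9% of 179 cells, beside 5.0% of 20 cells in the reporter embryo late E7.5 replicate 2. Visceral endoderm-like cells ranged from 0% to 2.89%, with a background of 0.291% and 0.423%. Neural ectoderm-like cells gave 3.44% and 4.21% against a background of 6.06% and 0% (33 and 78 cells), and surface ectoderm-like cells 2.66% and 3.43% against 1.33% and 3.51%. Extra-embryonic ectoderm-like cells ranged from 2.67% to 8.24%, with a background of 1.02% and 1.30%, and primordial germ cell-like cells from 3% to 13.1% against a background of 0.379% and 1.11%. Epiblast-like cells, the source of the streak, gave 5.86% in late E6.5 and up to 21.5% in E6.0 replicate 1, and 3.03% without the transgene. E7.75 replicate 1 lay lower than these ranges in most classes. Its shares were 1.59% of 126 definitive endoderm and gut-like cells, 1.67% of 60 germ cell-like cells, 0.763% of node, 0.755% of neural ectoderm and 0.453% of surface ectoderm-like cells, 0.955% of visceral endoderm-like cells and 0 of 23 parietal endoderm-like cells.

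**Figure D2:**
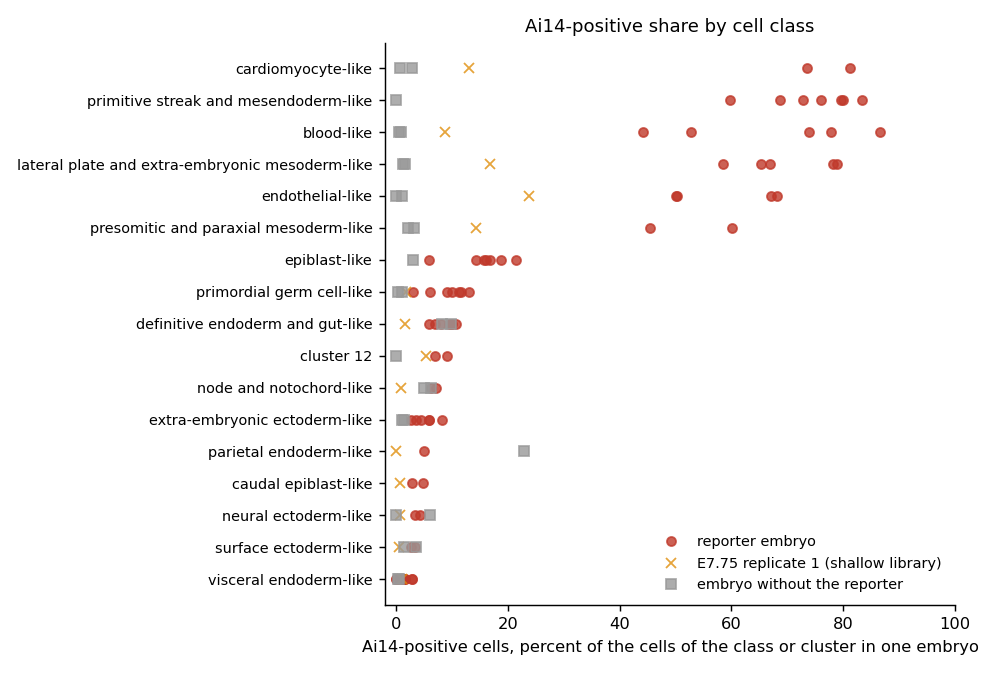
Share of cells with an Ai14 UMI (x axis, percent) by cell class (y axis), with cluster 12 by its number. Each mark is an embryo with at least 20 cells of the class, with circles for reporter embryos, crosses for the shallow E7.75 replicate 1 and squares for the embryos without Ai14. Cardiomyocyte, streak, blood, lateral plate, endothelial and paraxial mesoderm-like cells lie above 40% in the deeper reporter embryos, cluster 12 lies under 10%, and definitive endoderm and gut-like cells overlap with the embryos without the transgene.

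Ai14-positive cells carried the cardiac enhancer reporter more often. An eGFP UMI was found in 29.1% ± 10.3 (SD, n = 10) of Ai14-positive cells and in 4.67% ± 1.77 of Ai14-negative cells. The share was higher in 10 of 10 embryos (exact sign-flip permutation over embryos, two-sided p = 0.001953, the smallest it can give with 10 embryos). Depth moved with the split. The median UMI count per cell was 29880 ± 10170 in positive and 19520 ± 8296 in negative cells, a mean log2 difference of 0.64 ± 0.33 (SD, n = 10) with the same exact permutation p of 0.001953, and within clusters the difference was 0.26 ± 0.25, higher in 8 of 10 embryos (exact permutation p = 0.0137). Against negative cells with the same UMI count the eGFP shares were 29.1% and 6.33%. Against negative cells of the same cluster and nearest UMI count they were 18.2% and 8.71%, still higher in 10 of 10 embryos, with a depth gap left in late E7.5 replicate 2. Thinned to 2000 UMIs per cell they were 2.56% and 1.11%, higher in 7 of 10. The highest doublet scores, which mark barcodes that resemble a sum of 2 cells, fell on 19.1% of Ai14-positive and 10.7% of Ai14-negative cells.

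All Ai14-positive cells were compared with all Ai14-negative cells by summing counts for each side of each embryo. The sides were tested within embryos (edgeR's quasi-likelihood test, Benjamini-Hochberg adjusted p under 0.05). The negative side may hold cells of the lineage without a captured Ai14 UMI, here and in the matched and class comparisons. Of 16726 genes tested, 43.4% were called, 18.8% higher and 24.6% lower in Ai14-positive cells. The lean towards lower calls, 3144 against 4118, moved with the fit, since DESeq2 gave 3981 higher and 3986 lower genes, matching by UMI count 3258 and 3135, and leaving out E7.75 replicate 1 3950 and 3781. This is a comparison of mixtures of cell types, so the counts below are to be read against those shares. The median log2 change over all genes was -0.01. In sums over many cells, fewer cells of a type and less RNA per cell cannot be told apart. Levels are counts per 1000000 (CPM) of the summed counts and compare a gene between sides, not genes with each other.

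Of the genes above 10 CPM that moved the same way in every embryo, the largest rise was that of *Kdr*, and *Tal1* and *Etv2*, which also act in the endothelial and blood-forming program, were among the 10 largest. *Kdr* (chromosome 5, 75932827 to 75979072), the VEGF receptor that marks haemangioblasts, lay between 35.5 and 138 CPM in Ai14-positive cells with a median of 71.4, and between 2.81 and 12.8 CPM in Ai14-negative cells with a median of 5.14. The 2 ranges did not overlap, and the change was 3.68 ± 0.25 (log2, SE, adjusted p = 1.89e-06). *Etv2* (chromosome 7, 30633616 to 30636509), the ETS factor that starts the endothelial and blood program, had a median of 55.2 CPM (35.6 to 212) against 10.9 CPM (7.18 to 18.3). Its ranges did not overlap either, with a change of 2.60 ± 0.28 (adjusted p = 4.37e-05). *Tal1*, a blood and endothelial transcription factor, had a median of 15.7 against 1.20 CPM and a change of 3.31 ± 0.32. Of the 10 endothelial markers 9 rose, with a median log2 change of 2.56. Of the 9 blood markers 3 rose and 6 were not called, among them the globin *Hbb-bh1* (log2 1.98 ± 0.82, adjusted p = 0.103), and without E7.75 replicate 1 the count was 5 of 9.

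The lateral plate list rose as a whole, 8 of 8 genes, with a median log2 change of 2.36. *Hand1*, a transcription factor of extra-embryonic and cardiac mesoderm, had a median of 234 CPM (133 to 325) in Ai14-positive and 46.5 CPM (11.2 to 114) in Ai14-negative cells. *Foxf1*, a forkhead factor of lateral and extra-embryonic mesoderm, had a median of 13.5 (6.29 to 126) against 3.48 CPM (0.0831 to 25.5). *Hand1* ranges did not overlap, those of *Foxf1* did, and the changes were 2.31 and 3.01 on the log2 scale. *Pmp22* (2.99), the ligand *Wnt2* (2.98) and *Klhl6* (2.81) also separated the 2 sides in every embryo, with no overlap. All 5 allantois markers rose, with a median of 1.73.

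Cardiac genes were higher from the progenitor to the muscle program. Of the cardiac progenitor list, 8 of 9 rose, with a median log2 change of 2.14. *Tbx20*, a T-box factor of the heart field counted in the lateral plate list, lay between 10.8 and 39.8 CPM against 1.70 to 8.56. Its ranges did not overlap and the change was 2.41 ± 0.11. *Hand2*, also of the lateral plate list, rose by 2.96 and *Nkx2-5*, the homeobox factor of cardiac identity, by 1.997. *Tbx5* rose by 3.03, *Gata4* by 0.70 and *Smarcd3*, the chromatin remodeller subunit whose enhancer drives the eGFP transgene, by 2.44, in 9 of 10 embryos. Of 10 cardiomyocyte markers 8 rose, with a median of 2.16. The atrial light chain *Myl7* had a median of 194 CPM (37.2 to 1235) against 32.3 (3.37 to 528), and its ranges overlapped. Troponin T gene *Tnnt2* rose by 2.65, *Acta2* by 2.69 and *Myl4* by 2.60, although *Tnnt2* and *Acta2* had a median of only 1.03 and 3.72 CPM and reached 209 and 448 CPM only in late embryos.

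Genes of early mesoderm followed the age of the embryo. All 6 nascent mesoderm markers rose, with a median of 1.58. *Mesp1* itself, the driver of the marking and so not independent of it, had a median of 295 CPM (2.79 to 474) against 60.5 (3.39 to 92.1), a change of 1.78 ± 0.31 (adjusted p = 0.00131). It was higher in 8 of 10 embryos and lower in late E7.5 replicate 2 and E7.75 replicate 1. *Lefty2*, a Nodal inhibitor, rose by 2.11 and *Snai1*, the repressor of epithelial genes, by 1.36. Of the 8 primitive streak markers 1 rose, 1 fell and 6 were not called. Brachyury (*T*) had a median of 139 CPM against 98.2, was higher in 6 and lower in 4 embryos, and was not called (log2 -0.18 ± 0.35, adjusted p = 0.743). Neither was *Mixl1* (0.63, adjusted p = 0.166). In the presomitic and paraxial list 5 rose, among them *Meox1* (1.17), 1 fell and 4 were not called.

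Genes of the other germ layers and of the epiblast were lower. All 8 visceral endoderm markers fell, with a median log2 change of -3.93. Transthyretin gene *Ttr* lay between 0 and 175 CPM in Ai14-positive and between 511 and 2171 CPM in Ai14-negative cells, with no overlap, and changed by -4.30 ± 0.58. The apolipoprotein genes *Apoa1* (-4.24) and *Apoc2* (-4.49), *Rbp4* (-4.05) and *Afp* (-3.84) went the same way. All 7 epiblast markers fell, with a median of -1.28. The pluripotency genes *Pou5f1*, *Nanog* and *Sox2* changed by -0.75, -1.28 and -1.65. *Pou5f1* lay at 612.5 to 1292 CPM in positive and 791 to 1330 CPM in negative cells of the 7 early and middle embryos, and at 31.7, 14.7 and 116.5 CPM against 104, 49.2 and 344.6 CPM in the late ones. Of the neural list 8 of 9 fell, of the surface ectoderm list 5 of 6 (*Tfap2a* -1.96) and of the extra-embryonic ectoderm list 6 of 7 (*Rhox5* -2.76). Falls were also called in 4 of 5 node, 6 of 7 definitive endoderm (*Foxa2* -1.64), 3 of 4 germ cell and 3 of 6 caudal epiblast genes. The 6 parietal endoderm genes gave 1 higher and 1 lower.

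In the embryos without the transgene, cells with an Ai14 UMI differed from the other cells in another way for some lists and in the same way for others. Their list medians (log2 of positive over negative, a single embryo each, no test) were -1.12 and -0.89 for endothelial, -0.81 and -0.95 for lateral plate, -2.15 and -1.39 for blood and -0.21 and -0.41 for nascent mesoderm genes, opposite in sign to the reporter embryos. Definitive endoderm genes were at 1.04 and 0.93 and node genes at 1.85 and 0.97, and neural genes at 0.70 and 0.64, also opposite. On the same side as in the reporter embryos were visceral endoderm genes at -2.92 and -2.42, extra-embryonic ectoderm genes at -0.99 and -0.31, germ cell genes at -0.62 and -0.21 and surface ectoderm genes at -0.17 and -0.13. Paraxial genes at 0.23 and 0.20, Notch genes at 0.12 and 0.21 and retinoic acid genes at 0.23 and 0.09 were higher too. In the reporter embryos these 3 lists held more rises than falls. Single genes could also lie on that side. In early E7.5 replicate 1 *Snai1* was at 247 CPM in cells with an Ai14 UMI against 77.1 (log2 1.67), and *Pdgfra* at 48.8 against 19.4 CPM (1.31). In late E7.5 replicate 1 the values were -0.43 and -0.82.

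**Figure D3:**
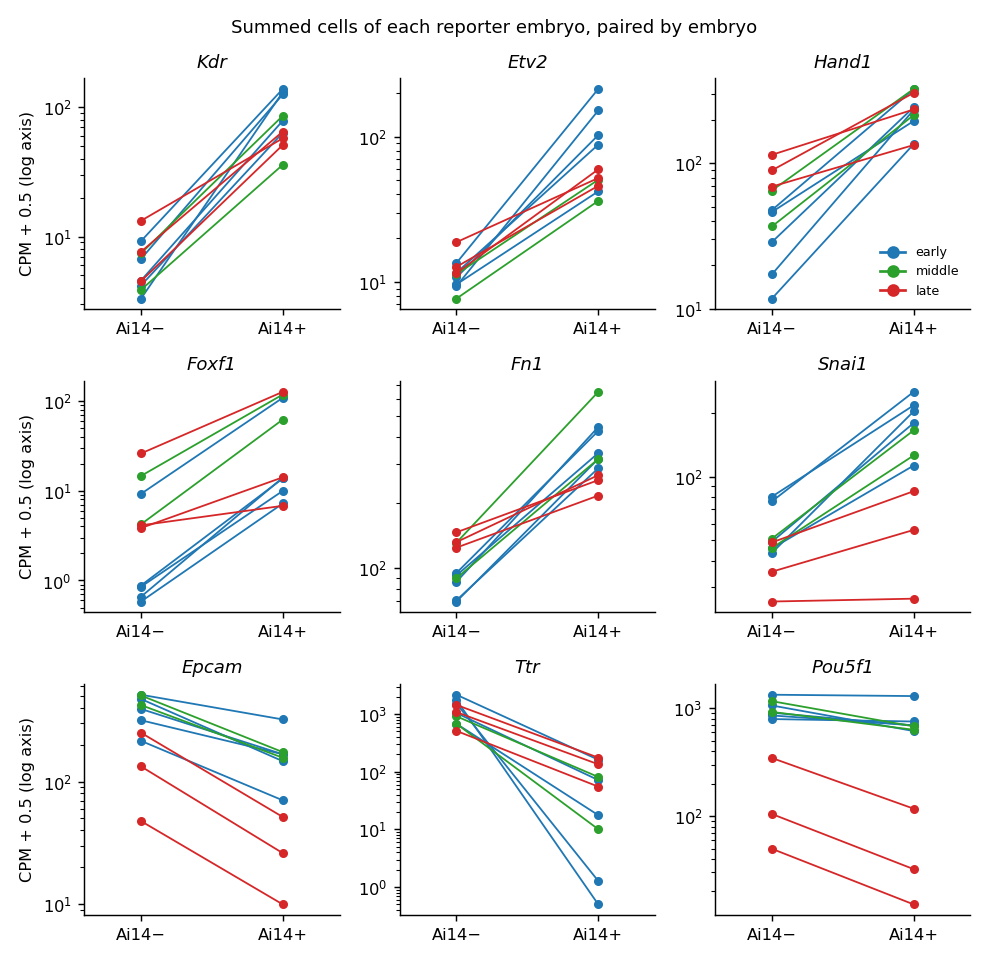
Levels of 9 genes (y axis, CPM + 0.5 on a log axis) in the summed Ai14-negative and Ai14-positive cells (x axis) of each of the 10 embryos, with a line per embryo coloured by stage. *Kdr*, *Etv2*, *Hand1*, *Foxf1*, *Fn1* and *Snai1* are higher in the positive cells of every embryo, and *Epcam*, *Ttr* and *Pou5f1* lower in every embryo.

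Genes of the epithelial to mesenchymal transition, by which streak cells lose their epithelial contacts, were called in 18 of 18, 14 higher and 4 lower. Fibronectin gene *Fn1* had a median of 318 CPM (215 to 649) in Ai14-positive and 92.8 CPM (69.3 to 145) in Ai14-negative cells, without overlap, and rose by 1.74. The mesenchymal cadherin *Cdh11* rose by 2.20 with no overlap, and *Vim* (1.402) and *Twist1* (1.79) rose as well. The 4 that fell are epithelial: *Cdh1* (-1.83), which encodes E-cadherin, *Epcam* (-1.57) and the claudin genes *Cldn6* (-2.29) and *Cldn7* (-2.19).

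Among receptors that guide migrating mesoderm, 7 of 15 rose and 3 fell. *Pdgfra*, a receptor for platelet-derived growth factor, lay between 19 and 39.02 CPM against 5.80 to 17.6, with no overlap, a separation also seen without the transgene in early E7.5 replicate 1 (48.8 against 19.4 CPM). The chemokine receptor *Cxcr4* rose by 1.53. *Aplnr*, the apelin receptor, rose by 2.01, while the gene of its ligand, *Apln*, was lower in all 10 embryos, at a median of 8.89 CPM (2.88 to 31.0) against 33.0 (4.44 to 68.1), a change of -1.50. Receptor and ligand thus lay on opposite sides of the split.

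The ligand genes of the FGF pathway differed in direction. *Fgf3* had a median of 112 CPM (4.98 to 185) against 11.8 (5.97 to 23.4) and rose by 2.61, higher in 9 of 10 embryos, and *Fgf10* rose by 2.12. *Fgf5* (-1.02) and *Fgf8* (-0.42) fell, as did the receptor *Fgfr4* (-2.64) and the target genes *Etv4* (-0.84) and *Etv5* (-0.58). In all, 2 of 17 rose, 9 fell and 6 were not called. In the BMP and Nodal list 11 of 18 rose and 3 fell. The ligands *Bmp4* (1.45 ± 0.38, adjusted p = 0.0123) and *Bmp5* (2.17) rose, *Msx2*, a BMP target, rose by 1.34, and the Nodal co-receptor *Tdgf1* by 1.41.

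Wnt genes were divided, with 6 of 19 higher, 5 lower and 8 not called. *Wnt5a* rose by 1.54 and *Lef1*, a nuclear mediator, by 0.74, while *Wnt3a*, a ligand of the caudal epiblast, fell by 1.53 on the log2 scale. Of 13 Notch genes tested, 7 rose and 2 fell. The receptor *Notch1* had a median of 14.6 against 5.75 CPM and rose by 1.15, the ligand *Jag1* by 0.56 and the target *Hes1* by 0.44, the last with a value of -0.09 in cells thinned to 2000 UMIs. In the retinoic acid list 6 of 12 rose and 2 fell. *Aldh1a2*, which makes retinoic acid, rose by 0.68 and *Crabp1*, a cellular binding protein, by 1.38. *Crabp2* fell by 1.71 on the log2 scale.

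The same contrast was fitted for each stage. In early embryos 36.1% of genes were called (15.8% higher, 20.3% lower), in middle embryos 23% (8.43% and 14.6%), which rest on 2 embryos, and in late embryos 33.2% (13.4% and 19.9%). The difference of the late and the early contrast was tested in the same model and was called for 12.3% of genes, 5.94% with a higher and 6.34% with a lower value in late embryos. The counts by stage fell far lower with Ai14-negative cells matched by cluster and UMI count, as given in the closing section. They also moved when single embryos were left out. In middle embryos 3854 genes were called, 1851 without late E6.5 replicate 1 and 1137 without E7.0 replicate 1, and in late embryos 5560, with 2905 without late E7.5 replicate 2 and 3528 without E7.75 replicate 2.

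Paraxial genes reversed between the stages. *Msgn1* (chromosome 12, 11208382 to 11208948), a bHLH factor of presomitic mesoderm, was higher in the Ai14-positive cells of each early embryo. Its levels were 9.06, 6.97, 1.18, 12.7 and 18.3 CPM in E6.0 replicates 1 to 3, late E6.0 and E6.5, against 1.45, 0.379, 0.176, 2.07 and 3.21 CPM in the negative cells. The direction in E6.0 replicate 3, whose positive sum held only 1691575 UMIs, rests on a few UMIs per side. In the late embryos late E7.5 replicate 2, E7.75 replicate 1 and E7.75 replicate 2 it was lower, at 9.40, 6.55 and 44.2 CPM against 48.4, 29.6 and 128. The late minus early difference was -4.58 ± 0.25 (log2, adjusted p = 4.04e-07), from 2.62 in early to -1.96 in late embryos. *Tbx6*, the T-box factor of the same tissue, went from 1.73 to -1.58, the Notch ligands *Dll1* and *Dll3* from 1.98 and 2.27 to -1.29 and -1.05, and *Lfng*, which modifies Notch, from 1.65 to -0.99. *Cdx4*, a posterior homeobox gene, went from 2.81 to -0.74. Of the 10 genes of the paraxial list, 6 had a lower and 1 a higher late value. *Tcf15*, a gene of differentiating somites, was the one with a higher value, at 2.02 in late embryos against an uncalled -0.22 in early ones, and *Meox1* was at 1.39 in late embryos. Without E6.5 replicate 1 the differences of *Cdx4* (-2.32 in place of -3.55) and *Tcf15* were not called.

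Streak genes reversed as well, and 5 of 8 had a lower late value. *T* went from 0.52 in early to -1.85 in late embryos, *Mixl1* from 1.25 to -1.11, *Eomes* from 0.48 to -1.49, *Evx1* from 1.29 to -0.75 and *Wnt3* from 0.74 to -0.9975. In late embryos *T* lay at 9.73, 9.96 and 26.9 CPM in Ai14-positive and at 40.8, 31.8 and 88.2 CPM in Ai14-negative cells. *Mesp1* changed by 2.25 in early embryos and was not called in late ones (0.46, adjusted p = 0.422), and the difference was -1.79 ± 0.44 (adjusted p = 0.0408). In the positive cells its level lay between 247 and 474 CPM in the 5 early embryos and at 2.79, 3.41 and 19.7 CPM in the 3 late ones. *Fgf3* (-2.34), *Rspo3* (-1.88), *Foxf1* (-1.95), *Hand1* (-1.67), *Cdh2* (-1.62), *Lef1* (-1.38), *Notch1* (-1.16), *Snai1* (-1.13) and *Fbln2* (-3.43) were also less raised, or no longer raised, in late embryos. Several of these calls hung on single embryos. The difference of *Foxf1* ranged from -3.79 without E6.5 replicate 1 to -1.76 without E7.75 replicate 1, and its call was kept only without these or E7.0. Those of *Mesp1* (-2.55 to -1.31) and *Hand1* (-1.96 to -1.47) were lost with 8 of 10 embryos left out in turn, that of *Snai1* with 3 and that of *Eomes* without late E7.5 replicate 2. *Kdr* was higher at both stages, by 4.31 and 3.07, and the difference of -1.24 was not called (adjusted p = 0.0831).

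Other genes gained. *Sfrp5* (chromosome 19, 42197971 to 42202252), a secreted Wnt inhibitor known from visceral endoderm and from the heart field, was lower in the Ai14-positive cells of each early embryo and higher in those of each late embryo. The 3 late embryos gave 35.9, 26.2 and 38.8 CPM against 11.6, 15.4 and 6.69, while the early ones lay between 0 and 4.68 CPM against 6.95 to 28.4. The difference was 4.69 ± 0.71 (adjusted p = 0.00613). *Cer1*, *H19*, *Igfbp5* and *Dab2* changed by -1.98, -2.71, -2.78 and -3.71 in early embryos and had differences of 2.81, 3.08, 2.31 and 2.21. The differences of *Igfbp5* and *Dab2* were smaller than their early falls, so their fitted late values stayed negative. *Cer1* was also higher in the cells with an Ai14 UMI of the embryos without the transgene, at 19.8 against 9.34 CPM and 123 against 48.8 CPM (log2 1.04 and 1.32), beside 0.67 to 0.90 in the 3 late reporter embryos. Of the 10 endothelial genes, 2 had a higher late value, *Flt1* (1.17) and *Cldn5*, and 8 were not called, among them *Kdr* and *Etv2* with values of -1.24 and -1.26. The vessel gene *Plvap* lay in late embryos at 40.1, 62.9 and 17.1 CPM against 7.09, 12.96 and 4.44, and *Cldn5* at 12.9, 14.7 and 3.83 CPM against 1.498, 1.601 and 1.17, with differences of 2.61 and 4.11. The blood factors *Gata1* (1.85) and *Klf1* (2.30) and the myosin gene *Myh6* (3.23) had a higher late value too. The call was lost with 9 of 10 embryos left out in turn for *Dab2* and with 8 for *Myh6*, without either E7.75 embryo for *H19*, without late E7.5 replicate 2 for *Cer1* and *Klf1*, and without E6.5 replicate 1 for *Cldn5*, where *Gata1* was at 2.79. The epiblast gene *Pou5f1* changed by -1.65 in late embryos and by an uncalled -0.31 in early ones, a difference of -1.34.

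Cell type make-up moved with stage, since streak-like cells were found in early and middle reporter embryos and cardiomyocyte-like cells in late ones. When Ai14-negative cells were matched by cluster and UMI count within embryos, 84 genes differed between stages, in place of 2053, of which 57 were among the 2053 with the same direction, and of the 35 genes whose stage difference was followed, 9 kept their direction and their call, 19 kept the direction only and 7 turned to the other side. The 9 were *Msgn1*, *Dll3*, *Lfng*, *Evx1*, *Fbln2*, *Fgf3*, *Rspo3*, *Cdh2* and *Lef1*, and those that turned were *Mesp1*, *Eomes*, *Meox1*, *Cer1*, *Dab2*, *Kdr* and *Gata1*. *T*, *Tbx6*, *Mixl1* and *Sfrp5* were among the 19, at -0.53, -1.29, -0.84 and 1.15. Without late E7.5 replicate 2 the count was 1132, and without E7.75 replicate 2 it was 1292. Stage also ran with the experiment, the number in a library's name, since experiments 6 and 8 held early and experiments 4 and 5 late reporter embryos. Experiment 7 held both, and there *Msgn1* was at 18.3 against 3.21 CPM in E6.5 and at 44.2 against 128 CPM in E7.75 replicate 2, and *Sfrp5* at 1.67 against 6.95 and at 38.8 against 6.69 CPM.

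**Figure D4:**
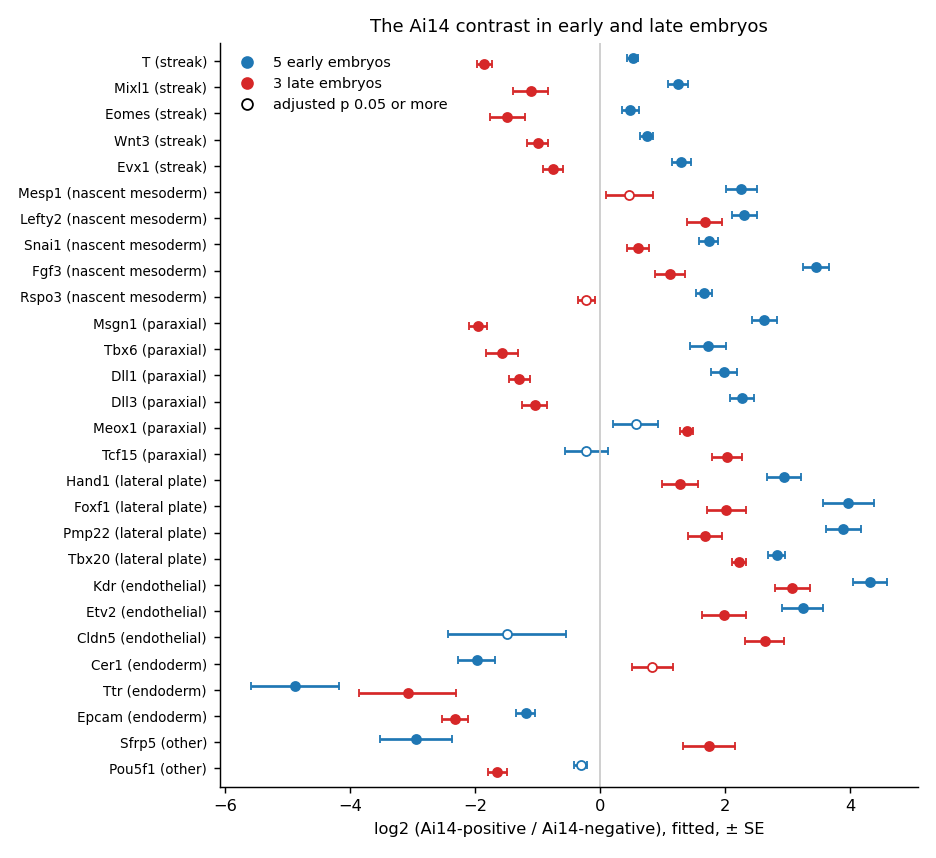
Fitted log2 change of Ai14-positive over Ai14-negative cells (x axis, ± SE) in the 5 early and 3 late embryos for selected genes (y axis), with open circles where the adjusted p was 0.05 or more. *Msgn1* lies at 2.62 in early and -1.96 in late embryos, *Sfrp5* at -2.94 and 1.74, and *Kdr* at 4.31 and 3.07.

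To bring the sides closer in type and depth, Ai14-positive cells were paired with Ai14-negative cells of the same embryo and cluster so that their UMI counts lay as near as the cells allowed. This left 7213 pairs, 28 to 2879 per embryo, and matched between 47.0% and 99.9% of the positive cells. Depth was not made equal in every embryo. The log2 difference in median UMIs per cell had a median of 0.03 over embryos and reached 0.36 in late E7.5 replicate 2, where the medians were 21520 and 16760 UMIs, and in E7.75 replicate 2 they were 20870 and 19260. These 2 embryos held 2879 and 1836 of the pairs. Of 13345 genes, 4.44% were called, 2.11% higher and 2.34% lower. Without E6.5 replicate 1 the count of 593 genes was 389, and without E7.75 replicate 2 it was 393. It was 303 with the highest doublet scores left out, and 1055 with clusters from cells not corrected between experiments. Clustering used these same cells, so the match holds cell type only as finely as the clusters do.

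Among genes above 10 CPM that moved the same way in every embryo, *Kdr* and *Etv2* rose most. *Kdr* had a median of 53.4 CPM (18.3 to 98.4) in Ai14-positive and 22.3 CPM (8.34 to 47.5) in matched Ai14-negative cells. Its ranges overlapped, yet it was higher in every embryo, by 1.05 ± 0.19 (log2, adjusted p = 0.0129). *Etv2* had a median of 50.8 against 26.8 CPM and rose by 0.82. The semaphorin and VEGF co-receptor *Nrp1* (0.51), *Igfbp4* (0.50), *Ppic* (0.49) and the T-box gene *Tbx3* (0.48) also rose in every embryo. The vessel genes *Emcn* (1.81, with no UMI in the early and middle embryos), *Cldn5* (1.66) and *Tal1* (0.50) were called as well, and the endothelial list gave 4 of 10 higher and none lower. In the class fits, paired endothelial-like cells still differed in median UMIs by up to 7.1 times in an embryo. The part of depth in the values of these genes was not tested. *Foxf1* (0.66), *Fgf10* (0.54), *Smarcd3* (0.44), *Fn1* (0.37) and *Cdh11* (0.23) kept a smaller rise. Without late E7.5 replicate 2 *Emcn* was at 1.23 and not called and *Cldn5* at 1.01. The call was lost with 8 of 10 embryos left out in turn for *Tbx3*, without E7.0 or E7.75 replicate 2 for *Foxf1* and *Cdh11*, and without E6.5 for *Igfbp4*.

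Of the cardiac progenitor list 4 of 8 rose, and of the lateral plate list 3 of 8. None of the 10 cardiomyocyte genes was called, *Tnnt2* at -0.02 with adjusted p = 0.987, and the direction of *Tnnt2* turned under other settings of the match. With clusters from cells not corrected between experiments it was called higher (edgeR, 0.34, adjusted p = 0.00492). *Mesp1* was not called either (0.32, adjusted p = 0.262), at medians of 251 and 216 CPM. The streak, nascent mesoderm, blood and extra-embryonic ectoderm lists held no called gene.

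*Crabp2* (chromosome 3, 87948693 to 87953372), a carrier of retinoic acid, had the largest fall by the same rule. Its level was lower in every embryo, with a median of 11.9 CPM (3.98 to 95.6) against 17.3 (4.71 to 137) and a change of -0.63 ± 0.04 (adjusted p = 5.57e-11). *2610528J11Rik* (-0.60), *Tdh* (-0.56), *Rbp4* (-0.53), *Epha1* (-0.50) and *Ddit4* (-0.45) followed. Epiblast genes were lower in 6 of 7, with *Pou5f1* at a median of 860 against 1100 CPM (-0.35) and *Utf1* at -0.36, and so were neural genes in 5 of 9 (*Sox1* -1.02), visceral endoderm genes in 5 of 8 and caudal epiblast genes in 4 of 6 (*Wnt3a* -0.79). *Epcam* (-0.35) and *Cdh1* (-0.26) fell as in the comparison of all cells, and so did *Hes7* (-1.01). In the embryos without the transgene the matched values of 2 visceral endoderm genes lay on the same side, at -0.89 and -0.20 for *Ttr* and at -1.44 and -0.21 for *Apoa1* (log2, a single embryo each, no test). So did *Crabp2* (-0.09 and -0.09) and *Nrp1* (0.15 and 0.13). *Epcam* (0.10 and 0.02) and *Smarcd3* (-0.36 and -0.49) lay on the other side, and *Kdr*, *Etv2*, *Tal1*, *Foxf1*, *Cdh1* and *Pou5f1* differed in sign between the 2 embryos. With single embryos left out in turn the calls of *Hes7* (8 of 10), *Wnt3a* (7 of 10, with -0.50 without E7.75 replicate 2) and *Utf1* (5 of 10) were lost, those of *Rbp4* without late E7.5 replicate 2 or E7.75 replicate 2 and that of *Sox1* without the former.

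**Figure D5:**
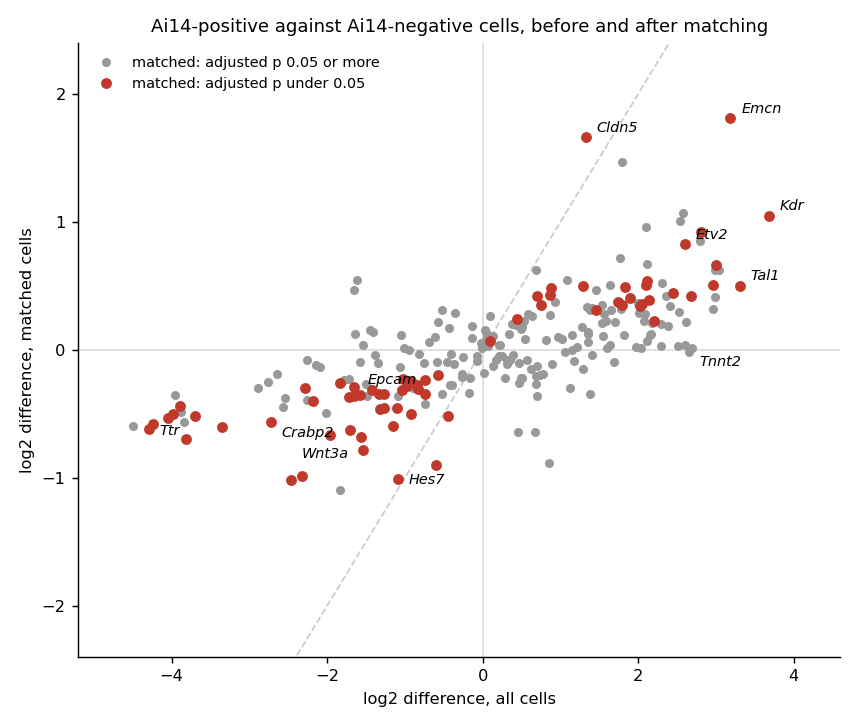
Log2 change of Ai14-positive over Ai14-negative cells for the 245 listed and named genes in all cells (x axis) and in cells matched by cluster and UMI count (y axis), with the 70 genes called after matching marked. The dashed line marks equal values. *Kdr* lies at 3.68 in all and 1.05 in matched cells, and *Ttr* at -4.30 and -0.62.

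Both sides of a class were also compared in 13 classes with at least 10 cells of each side in at least 3 embryos. Called genes made up 14.1% in lateral plate and extra-embryonic mesoderm-like, 12.8% in visceral endoderm-like, 6.1% in epiblast-like, 2.94% in presomitic and paraxial mesoderm-like, 2.06% in primitive streak and mesendoderm-like and 2.04% in endothelial-like cells. They made up 0.944% in extra-embryonic ectoderm-like, 0.771% in primordial germ cell-like, 0.694% in neural ectoderm-like, 0.618% in blood-like, 0.6% in definitive endoderm and gut-like, 0.484% in caudal epiblast-like and 0.328% in cardiomyocyte-like cells. The 2 sides of a class were not always alike in cluster or in doublet score, and differences are given beside the class. Positive cells also had the higher median UMI count in 48 of 54 pairs of sides, by up to 7.13 times in endothelial-like, 6.51 times in visceral endoderm-like and 4.59 times in blood-like cells. In the 4 classes made of a single cluster, pairing by UMI count gave 174 called genes in place of 217 in streak-like cells (131 in both), 37 in place of 192 in endothelial-like (35 in both), 7 in place of 34 in cardiomyocyte-like (4 in both) and 32 in place of 69 in germ cell-like cells (21 in both). Pairing also left fewer cells, and in endothelial-like cells the paired medians still differed by up to 7.1 times in an embryo.

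In primitive streak and mesendoderm-like cells of 5 embryos, 101 genes were higher and 116 lower. *T* (-0.81 ± 0.11), *Mixl1* (-0.65), *Eomes* (-0.24), *Cdh1* (-1.37), *Wnt3a* (-1.504), *Fgf4* (-1.48), *Nanog* (-0.91), *Apln* (-1.77) and *Tdgf1* (-0.38) were lower in the Ai14-positive cells. Those higher included *Kdr* (0.96 ± 0.11), *Tbx3* (1.10), *Isl1* (0.90), *Nrp1* (0.80), *Wnt2* (0.54), *Cxcr4* (0.51) and *Vim* (0.30). Of the 8 genes of the streak list 4 were lower, *T*, *Mixl1*, *Eomes* and *Gsc*, and 4 were not called, with a median of -0.59 beside 1.1% of all genes lower. At Leiden resolution 2, where the class is drawn from other clusters, 3599 genes were called. High doublet scores fell on 2.62% of its positive and 1.41% of its negative cells. Without E6.5 replicate 1 the count of 217 was 102 and without late E6.5 replicate 1 it was 107.

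Epiblast-like cells of 7 embryos gave 422 higher and 304 lower genes, with 290 in all by DESeq2 and 8 at Leiden resolution 2. *Foxf1* (2.97), *Msgn1* (2.80), *Hand1* (2.402), *Kdr* (2.12), *Fgf3* (2.09), *Lefty2* (1.70), *Mesp1* (1.53) and *Snai1* (1.09) were higher, and *Crabp2* (-0.53), *Nanog* (-0.40), *Sox2* (-0.29), *Otx2* (-0.27) and *Pou5f1* (-0.22) lower. The class holds 2 unlike clusters. Cluster 11, with 51.5% of the Ai14-positive cells, was led by *Lefty2*, *Mesp1*, *Tdgf1* and *Mixl1*, genes of the streak and nascent mesoderm, ahead of the epiblast genes *Pou5f1* and *Utf1*, which goes in part against the name of the class. Cluster 2, with 61.9% of the negative cells, was led by epiblast genes. Matched by cluster and UMI count the class gave 474 genes, 370 of them among the 726. High doublet scores were seen on 4.68% and 3.77%. The count of 726 was 1190 without late E6.5 replicate 1, 233 without E6.5 replicate 1 and 182 without E7.0 replicate 1.

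Presomitic and paraxial mesoderm-like cells, from the 3 late embryos, gave 151 higher and 200 lower genes, and DESeq2 called 42. Matched by cluster and UMI count the class gave 178 genes, 117 of them among the 351. Of the 10 genes of the presomitic and paraxial list 5 were lower, *Tbx6* (-1.68), *Dll3* (-1.15), *Meox1*, *Foxc2* and *Aldh1a2* (-0.74 ± 0.03), and 5 were not called, with a median of -0.95 beside 1.68% of all genes lower. The other genes lower included *Cdx1* (-1.38), *Lfng* (-1.15), *Fgf15* (-1.21) and *Fgf3* (-1.72). *Kdr* (1.11), *Flrt2* (0.87), *Twist1* (0.62), *Snai2* (0.61) and *Cdh11* (0.52) were higher. Of the positive cells 65.7% lay in cluster 23, and of the negative cells 81.9% in cluster 10. High doublet scores fell on 13.4% and 10.7%. Without E7.75 replicate 1 the count of 351 was 991, and it was 91 and 77 without late E7.5 replicate 2 and E7.75 replicate 2.

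In lateral plate and extra-embryonic mesoderm-like cells of 6 embryos, 1026 genes were higher and 502 lower, and DESeq2 called 610. After matching by cluster and UMI count, in 5 embryos, 11 genes were called, 7 of them among the 1528 called before. Both cluster and depth differed between sides, with 68.7% of positive cells in cluster 14 and 80.8% of negative cells in cluster 13 and a median UMI count 1.16 to 3.28 times higher in positive cells, and their parts cannot be told apart here. High doublet scores fell on 21.1% and 12.8%. *Notch1* (1.01), *Flt1* (0.86), *Pdgfra* (0.61), *Snai2* (0.58) and *Kdr* (0.43) were higher. *Hoxa11* (-1.99), *Tbx4* (-1.95), *Ttr* (-1.40), *Isl1* (-1.20), *Fgf8* (-1.12), *Mesp1* (-0.61) and *T* (-0.52) were lower. Without late E7.5 replicate 2 and E7.75 replicate 2 the count of 1528 was 439 and 410.

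In endothelial-like cells of 4 embryos 156 genes were higher and 36 lower, and DESeq2 called 13. The vessel receptors *Flt1* (0.70), *Kdr* (0.46) and *Tek* (0.43), *Notch1* (0.68) and the junction gene *Cldn5* (0.66) were higher, and the globins *Hba-x* (-1.90) and *Hbb-bh1* (-1.82) lower. The immune genes *Cd74*, *H2-Aa* and *Lyz2*, chosen after their values were seen, were lower too, with 2, 1 and 1 UMIs among the 21305666 of the positive cells and 437, 142 and 39 among the 6841182 of the negative cells. Whether the cells with these UMIs came from the embryo was not tested. High doublet scores fell on 27.9% and 14.1%. The count of 192 was 364 without E7.75 replicate 1, 35 without late E7.5 replicate 2 and 41 without E7.75 replicate 2.

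Few genes were called in the 3 embryos each of cardiomyocyte-like (all late) and blood-like cells (E7.0 and late). In cardiomyocyte-like cells 8 genes were higher and 26 lower, among them *Msx1* (-0.55), *Pmp22* (-0.48), *Acta2* (-0.26) and *Myl7* (-0.22), with *Lefty2* (0.60), *Foxc2* (0.52) and *Sfrp5* (0.39) higher. High doublet scores fell on 24.4% and 23.3%. DESeq2 called 0 genes in this class (60 at an unadjusted p under 0.05), pairing by UMI count gave 7 and Leiden resolution 2 gave 11. With the highest doublet scores left out the count rose above 34, as given in the closing section. Without late E7.5 replicate 2 the count of 34 was 6, and without E7.75 replicate 1 it was 18. Blood-like cells gave 61 higher and 5 lower genes (9 in all by DESeq2, 7 at Leiden resolution 2), with *Acta2* (1.98), *Flt1* (1.93), *Nrp1* (1.82), *Etv2* (1.19) and *Hand1* (1.13) higher and *Apoa1* (-0.83) lower. Cluster 33, led by adult globins, held 57.7% of the negative and 7.04% of the positive cells. Matched by cluster and UMI count the class gave 50 genes, 28 of them among the 66. With the highest doublet scores left out, no blood-like gene was called by edgeR, while 474 had an unadjusted p under 0.05. High scores fell on 21.8% of its positive and 12.5% of its negative cells, and without E7.75 replicate 2 the count of 66 was 33.

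The 2 sides of classes outside the mesoderm were compared in the same way. DESeq2 called 525 genes in visceral endoderm-like, 39 in definitive endoderm and gut-like, 32 in extra-embryonic ectoderm-like, 8 in caudal epiblast-like and 18 in neural ectoderm-like cells, fewer than edgeR in each. Matched by cluster and UMI count, edgeR called 622 in place of 1510, 26 in place of 66 and 20 in place of 97 in the first 3 of these classes. In the last 2 it called 35 in place of 56 and 54 in place of 79. In visceral endoderm-like cells of 4 embryos 913 genes were higher and 597 lower, with *Foxf1* (3.68), *Meox1* (3.51), *Mesp1* (3.36) and *Hand1* (2.98) higher and *Ttr* (-0.40) and *Apoa1* (-0.32) lower. There 59.8% of positive and 11.3% of negative cells had high doublet scores, and 12 genes were called without them. Cluster 1 held 64.4% of the positive and 36.1% of the negative cells. Definitive endoderm and gut-like cells of 6 embryos gave 30 higher genes, among them *Hand2* (3.31), *Foxf1* (3.01), *Meox1* (2.90), *Kdr* (2.87) and *Fgf3* (2.25), and 36 lower, among them *Epcam* (-0.32), with 13 called without high scores (29.0% of positive, 15.9% of negative cells). *Hand2* had 36 UMIs among the 8348279 of positive and 26 among the 63586101 of negative cells, with a UMI in 4 of the 6 embryos. In extra-embryonic ectoderm-like cells *Mesp1*, with 26 UMIs among the 2659968 of positive and 8 among the 37054074 of negative cells, was higher, as was *Hbb-bh1*, seen in 1 of 4 embryos, and *Rhox9* (-1.02) was lower, 82 and 15 genes in all and 6 without high scores (44.9% and 10.3%), and cluster 21 held 83.2% of positive and 52.4% of negative cells. Caudal epiblast-like cells gave 49 higher and 7 lower, with *Foxc2* (3.60), *Gata5* (3.41) and *Isl1* (2.76) higher, and 3 called without high scores (31.0% and 13.9%), and cluster 9 held 70.2% and 42.1%. In neural ectoderm-like cells, where high scores fell on 36.4% and 10.3%, 76 were higher, among them *Tcf15* (3.41), *Meox1* (3.03) and *Aldh1a2* (2.60), and 3 lower, and cluster 15 held 76.6% and 41.4%.

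Primordial germ cell-like cells of 3 embryos, with 50 positive cells in all, gave 38 higher and 31 lower genes, and DESeq2 called 23. *Foxf1* (2.29), *Hand1* (1.16) and *Snai1* (0.73) were higher and *Epcam* (-0.54) lower, as was *Ttr*, with 2 UMIs in the positive and 256 in the negative cells. High doublet scores fell on 14.1% and 11.1%. The count of 69 was 1 without E7.0 replicate 1, 39 without E6.5 replicate 1 and 161 without E7.75 replicate 2.

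In these classes outside the mesoderm the counts also turned on single embryos. Visceral endoderm-like cells gave 301 of 1510 without late E7.5 replicate 2 and 498 without E7.75 replicate 2. Definitive endoderm and gut-like cells, with 66, gave 143 without E6.0 replicate 1, 31 without late E6.5 replicate 1 and 14 without E7.75 replicate 2. Extra-embryonic ectoderm-like cells, with 97, gave 30 without late E7.5 replicate 2 and 62 without E6.5 replicate 1. Caudal epiblast-like cells, with 56, gave 18 and 31 without late E7.5 replicate 2 and E7.75 replicate 2, and neural ectoderm-like cells, with 79, gave 20 and 35.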

How the data were processed

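Whole control mouse embryos were profiled by 10x Genomics 5′ single-cell RNA-seq, 1 embryo per library. Reads were processed by the authors with Cell Ranger 3.0.2 against mm10 with Ai14 and eGFP sequences added, and the UMI counts per gene and barcode, not normalized, were deposited. Groups, stages and replicate numbers came from the sample labels, and the Ai14 status of embryos from the study's description. The cells compared, the gene lists and the tests were chosen with earlier results of these data known, so they are not independent evidence.

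Kept cells had 200 to 7000 genes, under 50000 UMIs and under 10% of UMIs from mitochondrial genes (38295 features). A clustering without the 236 listed genes and reporters used 2000 variable genes, 50 principal components, alignment of experiments by mutual nearest neighbours and the Leiden method at resolution 1 on 20 neighbours (leidenalg 0.10.2). A cluster was named where at least 3 markers of a list were 2-fold above the other clusters. The name was withheld where another list held more of the cluster's 10 leading genes. It was also withheld from shallow clusters with no leading gene on their own list. Doublet scores came from simulated pairs in each library, and the highest 0.8% per 1000 barcodes were marked but kept.

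Counts were summed per embryo and side and passed through filterByExpr and TMM scaling to the quasi-likelihood test of edgeR 4.0.16 (R 4.3.3), with the embryo as a block, since both sides come from the same animal, and with stage-specific effects for the stage comparison. Adjusted p is from Benjamini-Hochberg over all genes tested. A gene's log2 change is the fitted value, and a gene absent from a side depends on the prior count. Positions are those of RefSeq genes on GRCm38.p6, the assembly of mm10. The scripts were tested on simulated counts with known changes. No read-level file was used, and the 3 *Mesp1* KO embryos were not analysed here. *Plet1*, *Spink1* and *Apela* of the lists were not measured and *Heyl* was not tested. The values of 1 listed gene are not reported here.

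Named genes are those of 19 marker and 7 pathway lists and, by rule, up to 10 per direction for all cells and 6 for matched cells and for the stage difference, with the largest change past the threshold at a mean of at least 10 CPM, in the same direction in every embryo for the first and second of these. Alternatives were DESeq2 1.42.0, other filters, thresholds, matching and clustering, and each embryo left out. Matching in the stage and class fits, the filter by side and doublets left out of classes were added after seeing the data.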

Additional observations from a re-analysis of the deposited data

Results flagged for a closer look

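Of 101 sets of values over the 10 embryos, 10 had an embryo that lay far from the other 9 (Dixon's criterion of 0.466), where chance alone gives about 1 in 20. Values of genes are log2 ratios of Ai14-positive over Ai14-negative CPM in that embryo. In E7.75 replicate 1, the shallow library, the Ai14-positive share was 4.67%, and the ratios of *Myl7* and *Fgf10* were 1.22 and 0.59, lower than in the other embryos. In all cells *Cldn7* was at -1.18 in E6.0 replicate 1 and *Rhox5* at -4.57 in late E6.0 replicate 1. In matched cells *Nrp1* (3.77) and *Hes7* (1.61) stood apart in E6.0 replicate 3, *Tnnt2* (1.49) in E6.0 replicate 2, *Rbp4* (-2.05) in late E6.0 replicate 1 and *Utf1* (-0.82) in E6.5 replicate 1. E6.0 replicate 3 had 28 to 48 Ai14-positive cells in these sums, the fewest.

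The Ai14 contrast differed between late and early embryos for 33 of the 35 named genes followed, beside 12.3% of all genes. Each value is the tested difference of the 2 contrasts in edgeR (log2, late minus early). Some of the 35 were named because they passed this threshold, so the count is not a result about the set. Several calls were lost with single embryos left out, as given above. In cells matched by cluster and UMI count 9 of the 35 kept their direction and call. Of streak and nascent mesoderm genes, *Mesp1* was at -1.79, *T* at -2.38, *Mixl1* at -2.36, *Eomes* at -1.97, *Wnt3* at -1.74, *Evx1* at -2.05 and *Snai1* at -1.13. Paraxial and Notch genes were at -4.58 (*Msgn1*), -3.30 (*Tbx6*), -3.27 (*Dll1*), -3.32 (*Dll3*), -2.65 (*Lfng*), -1.16 (*Notch1*) and 2.24 (*Tcf15*). Further lower values were those of *Cdx4* (-3.55), *Fbln2* (-3.43), *Fgf3* (-2.34), *Rspo3* (-1.88), *Lef1* (-1.38), *Hand1* (-1.67), *Foxf1* (-1.95), *Cdh2* (-1.62) and *Pou5f1* (-1.34). Higher values were those of *Sfrp5* (4.69), *H19* (3.08), *Cer1* (2.81), *Plvap* (2.61), *Igfbp5* (2.31), *Dab2* (2.21), *Cldn5* (4.11), *Myh6* (3.23), *Gata1* (1.85) and *Klf1* (2.30).

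Embryos without the Ai14 transgene, which enter no test of sides, still had Ai14 UMIs in 2.70% of the cells of early E7.5 replicate 1 and 2.44% of those of late E7.5 replicate 1. The shares reached 9.80% and 8.12% in definitive endoderm and gut-like cells and 22.9% in parietal endoderm-like cells of early E7.5 replicate 1.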

How the results depend on the processing

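Of 2633 values of named genes under alternative settings, 2424 kept their direction and their side of the threshold. Limits are the depth of Ai14 detection, the single UMIs in embryos without the transgene, the 2 middle embryos and clusters that hold cells of unlike depth. The genes of the comparison of all cells numbered 7262, and 1390 in cells thinned to 2000 UMIs, and those of matched cells 593, with 303 without high doublet scores and 1055 without correction between experiments before clustering. The mean Ai14-positive share was 10.15% with at least 2 UMIs and 3.618% in thinned cells.

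The embryo was the block in every fit, since both sides come from the same animal. With no replicate block and stage as a covariate, 3559 genes were called in all cells and 0 in matched cells by edgeR, where 141 had an unadjusted p under 0.05 and the blocked fit called 593.

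With Ai14-negative cells matched by cluster and UMI count, the counts were 268 genes in early embryos, 15 in middle ones and 398 in late ones. The stage difference was called for 1062 genes with matching by UMI count, 84 by cluster and UMI count and 410 for late and middle embryos together. In that cluster and UMI match the difference was 0.0445 for *Mesp1*, 0.12 for *Eomes*, -0.74 for *Meox1*, -0.0698 for *Cer1*, -0.10 for *Dab2*, 0.18 for *Kdr* and -0.10 for *Gata1*, against the opposite sign before, and *Meox1* ranged from -0.0123 without E6.5 replicate 1 to 1.19 with each embryo left out. In all cells *T* was at 0.0455 without late E7.5 replicate 2 and 0.0219 without E7.75 replicate 2, and down to -0.28 without another embryo, and *Hes1* at -0.0907 in thinned cells. In matched cells *Tnnt2* ranged from -0.0846 to 0.0506 with each embryo left out and was at 0.115 with at least 2 Ai14 UMIs, 0.14 matched by cluster only, 0.41 at Leiden resolution 2 and 0.34 without correction. The cause was not tested for any of these.

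Within classes DESeq2 called 9 genes in blood-like, 0 in cardiomyocyte-like (60 at an unadjusted p under 0.05, 34 by edgeR), 8 in caudal epiblast-like, 39 in definitive endoderm and gut-like, 13 in endothelial-like, 290 in epiblast-like, 32 in extra-embryonic ectoderm-like, 610 in lateral plate-like, 18 in neural ectoderm-like, 42 in paraxial-like, 23 in germ cell-like and 525 in visceral endoderm-like cells. Resolution 2 gave 7 in blood-like, 11 in cardiomyocyte-like, 8 in epiblast-like and 3599 in streak-like cells. Matching by cluster and UMI count gave 7 in cardiomyocyte-like, 35 in caudal epiblast-like, 26 in definitive endoderm and gut-like, 37 in endothelial-like, 474 in epiblast-like, 20 in extra-embryonic ectoderm-like, 11 in lateral plate-like, 178 in paraxial-like, 32 in germ cell-like and 622 in visceral endoderm-like cells. Without high doublet scores the counts were 0 in blood-like (474 at an unadjusted p under 0.05), 58 in cardiomyocyte-like, 3 in caudal epiblast-like, 13 in definitive endoderm and gut-like, 6 in extra-embryonic ectoderm-like and 12 in visceral endoderm-like cells.

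Leaving out each embryo in turn gave 6031 to 7731 genes in all cells, 389 to 563 in matched cells, 4717 to 6203 in early embryos, 1137 to 4086 in middle ones and 2905 to 5751 in late ones and 1132 to 2421 for the stage difference. The ranges by class were 33 to 99 (blood-like), 6 to 39 (cardiomyocyte-like), 18 to 72 (caudal epiblast-like), 14 to 143 (definitive endoderm and gut-like), 35 to 364 (endothelial-like), 182 to 1190 (epiblast-like), 30 to 136 (extra-embryonic ectoderm-like), 410 to 2021 (lateral plate-like), 20 to 95 (neural ectoderm-like), 77 to 991 (paraxial-like), 102 to 274 (streak-like), 1 to 161 (germ cell-like) and 301 to 1732 (visceral endoderm-like). The eGFP difference was 22.55 to 26.38 percentage points, the log2 difference in UMIs 0.56 to 0.69 and the mean Ai14 share 18.65% to 20.82%. Embryos whose removal moved a count by over 1.5 times are named beside that count in the comparisons.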
